A study of Mus musculus with 18 samples.

Results

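The nuclear genes for the subunits of mouse oxidative phosphorylation were followed across 3 regions of the embryonic neocortex. Members were chosen by symbol in the platform annotation: the Nduf genes of complex I, Sdha to Sdhd of complex II, the Uqcr genes and Cyc1 of complex III, Cox genes of complex IV, and Atp5 genes of complex V. The rule found 73 genes among 15063 named on the array, and 71 of them could be tested, of 13379 named genes tested. Where a gene had several probes, the probe with values on most arrays was taken, and only Atp5md had more than 1. The 71 comprised 31 genes of complex I, 4 of complex II, 9 of complex III, 12 of 13 of complex IV and 15 of 16 of complex V. Cox7b2 and Atp5mpl had values on too few arrays to be tested, and 69 members had values on all 18 arrays. The genes lie on 19 chromosomes, with at most 7 on any of them.

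The tissue was neocortex of E13.5 embryos of MF1 mice (E for embryonic day), with no mutation or treatment named in the labels, divided into rostral, middle and caudal parts. There were 3 RNA pools of each part, and 18 arrays with 2 dyes (Cy3 and Cy5) each set a pool of 1 region against a pool of another, so that every pool was on 4 arrays. The pools came from 4 embryos and the labels leave out how embryos were assigned to pools, so the p-values below measure the spread between pools, which may in part be technical. In such bulk RNA, fewer cells of a type and less RNA per cell cannot be told apart.

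Complexes I to IV of the inner mitochondrial membrane pass electrons from NADH and succinate to oxygen, and complexes I, III and IV pump protons as they do so. ATP synthase, complex V, lets the protons return through its membrane part and uses them to make ATP in its F1 head. Dividing cortical progenitors are known to draw much of their ATP from glycolysis, while differentiating neurons come to depend on oxidative phosphorylation, and neurogenesis in the neocortex starts earlier at rostral and lateral than at caudal and medial positions. Which subunits differ along the rostrocaudal axis, and whether the 5 complexes behave alike, was the question put to the data.

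Each value below is a pool value: the log2 level of a gene in a pool against the mean of the 9 pools, estimated from the ratios on its arrays. The deposited ratios do not state their direction. They were read as Cy5 over Cy3 by channel order, which is likely because Nr2f1, a transcription factor known to be higher caudally, then differed by -1.02 on the log2 scale between rostral and caudal pools (SE 0.07, limma adjusted p = 0.0138), and Etv1, known to be higher rostrally, read 0.80 higher (SE 0.07, limma adjusted p = 0.0272). Every array was centred on its median. Without that step the median over all features was -0.07 for the rostral-caudal difference, 0.10 for rostral minus middle and -0.17 for middle minus caudal, so all differences here are relative to the array medians.

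Rostral pool 3 and caudal pool 1 stood apart from the other pools in most of the subunit genes. The median over the 71 genes was -0.16 in rostral pool 3 and -0.15 in caudal pool 1. In the other pools it was 0.04 in rostral pool 1, 0.05 in rostral pool 2, -0.02 in middle pool 1, 0.04 in middle pool 2, 0.08 in middle pool 3, 0.03 in caudal pool 2 and 0.07 in caudal pool 3. Of the 71 genes, 59 were below 0 in rostral pool 3 and 57 in caudal pool 1, while middle pool 3 had only 9 below 0. Rostral pool 3 was the lowest of the 9 pools for 27 genes and caudal pool 1 for 24, against 2 to 5 genes for each of the other pools. Over all 18525 features tested, these pools were the lowest for 12.9% and 11.8%, and their medians over those features were 0.0071 and 0.02. These medians are relative to all features: without centring, the member median less that of all features was -0.18 in rostral pool 3 and -0.17 in caudal pool 1, with the medians themselves at -0.07 and 0.07.

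**Figure D1:**
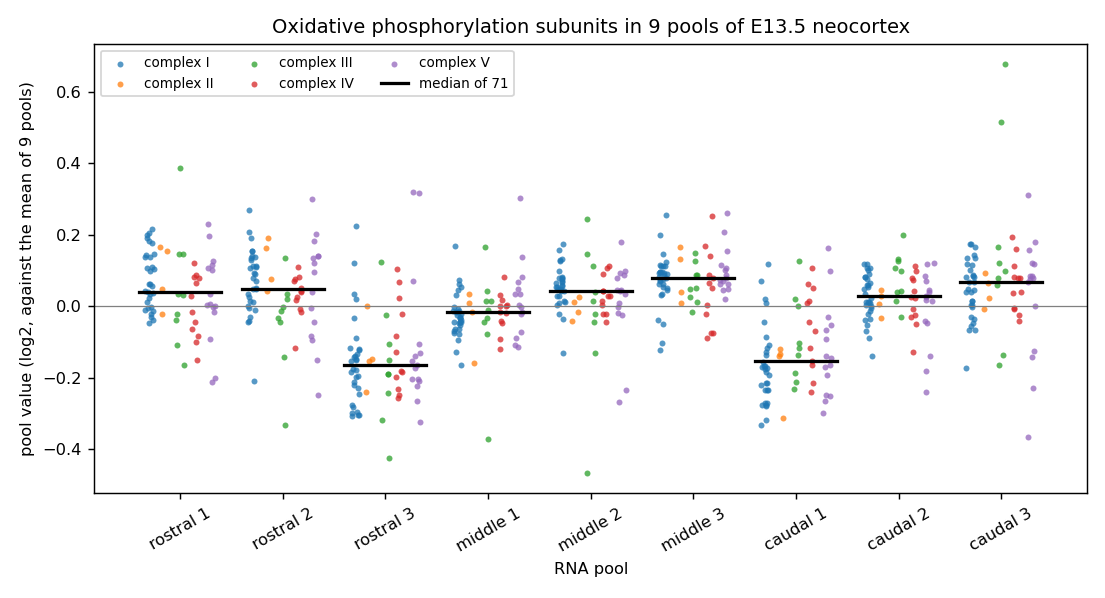
Pool values (log2, against the mean of the 9 pools; y axis) of 71 subunit genes in each RNA pool (x axis). Points are genes, coloured by complex, and black bars are medians of 71 genes. The bars of rostral pool 3 (-0.16) and caudal pool 1 (-0.15) lie below those of the other pools (-0.02 to 0.08).

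The low values of both pools appeared in all 5 complexes, to different extents. Complex I, the largest group, had medians of -0.17 and -0.18, with 27 of 31 genes below 0 in each of the pools. Complex II, succinate dehydrogenase, had medians of -0.15 and -0.14. Complex III had -0.19 and -0.12, and complex V had -0.16 and -0.14. Complex IV had -0.16 in rostral pool 3 and -0.06 in caudal pool 1, and its median in caudal pool 1 was -0.14 without the muscle and testis isoforms. The 4 tested muscle and testis isoforms had medians of 0.05 and 0.03 in these pools.

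Ndufb4, a supernumerary subunit of complex I, shows the shape that many members shared. Its rostral pools read 0.15, 0.14 and -0.30, its middle pools -0.03, 0.04 and 0.09, and its caudal pools -0.28, 0.11 and 0.08. Ndufa7, another supernumerary subunit, read 0.20, 0.21 and -0.29 in rostral pools, -0.0084, 0.05 and 0.09 in middle pools, and -0.33, 0.12 and -0.03 in caudal pools. In both genes 1 rostral and 1 caudal pool were low and the regions overlapped. Sdhb, the iron-sulfur subunit of succinate dehydrogenase, gave the same order, with -0.24 in rostral pool 3 and -0.31 in caudal pool 1 against -0.02 to 0.19 elsewhere. Atp5o, the subunit that joins the F1 head to the peripheral stalk, read -0.17 and -0.30 in those pools against -0.11 to 0.23 elsewhere.

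Some members did not show both low pools. Ndufs1, the largest core subunit of complex I, read 0.12 in both rostral pool 3 and caudal pool 1, its highest values. Ndufv3, a small subunit of the NADH-binding module, read 0.23 in rostral pool 3 and -0.08 in caudal pool 1. Cox8a, a small subunit of complex IV, stayed between -0.04 and 0.06 in all pools. Sdha, the flavoprotein of succinate dehydrogenase, read 0.0018 in rostral pool 3, while caudal pool 1 was its lowest at -0.12. Atp5g1, a gene for the c ring of ATP synthase, read 0.32 in rostral pool 3, its highest value.

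The arrays showed the same order directly. On the 3 arrays with rostral pool 3 or caudal pool 1 in Cy3 and another pool in Cy5, the median ratio of the members was 0.17, 0.19 and 0.19. On the 3 arrays with 1 of them in Cy5 and another pool in Cy3, it was -0.18, -0.22 and -0.24. The array that carried both gave -0.05, and the other 11 arrays lay between -0.09 and 0.09. The sign changed with the dye that carried the low pool. The median residual SD between arrays was 0.086 for the members against 0.256 for all features, while the median SD between pools within a region was 0.132 against 0.151. The pool SD was larger than the array SD in 39 of 71 members (54.9%) and in 13.8% of all features. The array SD is that of a single ratio, while a pool value rests on 4 arrays. Equal SDs thus do not mark where pools vary beyond array noise. Members and all features also differed more in array SD than in pool SD.

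**Figure D2:**
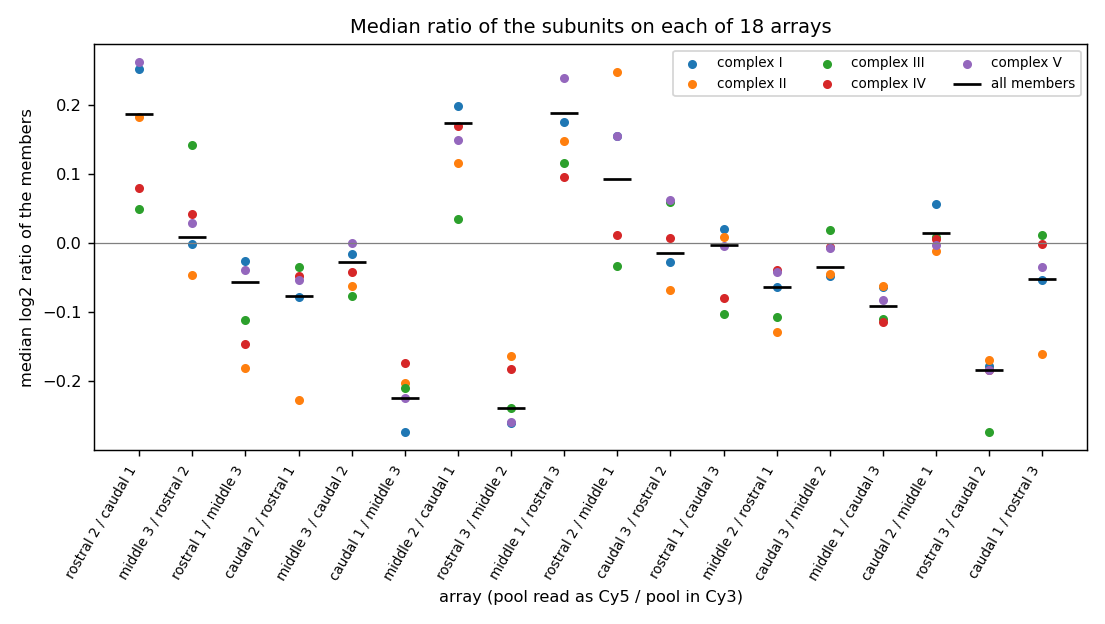
Median log2 ratio (y axis) of the subunit genes on each of 18 arrays (x axis, pool in Cy5 / pool in Cy3); black bars are all members and coloured points are complexes I to V. Arrays with rostral pool 3 or caudal pool 1 against another pool lie at 0.17 to 0.19 or at -0.18 to -0.24, and the remaining arrays between -0.09 and 0.09.

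Some other gene groups were also low in these pools. Cytosolic ribosomal protein genes (62 tested) had medians of -0.22 in rostral pool 3 and -0.14 in caudal pool 1, and mitochondrial ribosomal protein genes (70 tested) -0.12 and -0.14. The 231 Gapdh control spots with values, a single transcript spotted many times, had -0.15 and -0.14. They were also below 0 in rostral pool 1 (-0.09) and rostral pool 2 (-0.04). Factors that assemble the complexes (38 tested) had -0.08 and -0.11. Citric acid cycle and pyruvate dehydrogenase genes (16 tested) had -0.08 and -0.04, and glycolysis genes (15 tested) -0.03 and -0.07. Citric acid cycle genes also read -0.05 in rostral pool 2, and glycolysis genes -0.03 in rostral pool 1. Those groups thus did not single out rostral pool 3 and caudal pool 1. Red blood cell markers (6 of 13 tested) had -0.35 and -0.15, against -0.08 and -0.0016 in the other rostral pools, 0.15, 0.11 and 0.05 in the middle pools, and 0.17 and 0.10 in the other caudal pools. Markers of neurons (12 tested) had 0.01 and 0.05, and markers of radial glia (9 of 10 tested) -0.01 and 0.03. Ratios carry no absolute level, so neither summed marker levels nor the labelled tissue could be checked against markers, and the part of red blood cells, or of the RNA of single pools, in the subunit values was not tested.

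**Figure D3:**
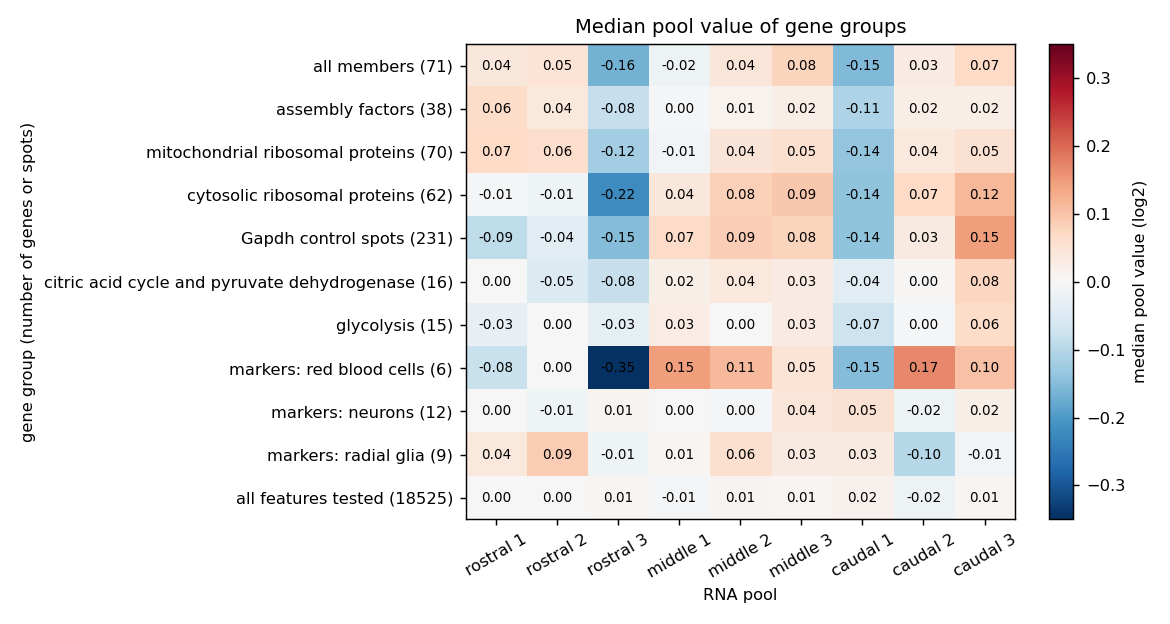
Median pool value (log2, colour and number in each cell) of gene groups (rows, number of genes or spots in brackets) in the 9 pools (columns). The subunit genes, both classes of ribosomal protein genes, the assembly factors and the Gapdh control spots are low in rostral pool 3 and caudal pool 1, and neuron and radial glia markers are between -0.10 and 0.09 in all pools.

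Between regions the subunit genes differed little. No member passed limma's test after Benjamini-Hochberg adjustment over all 18525 features in any comparison of 2 regions or in the F test of any difference. The lowest adjusted p of a member (limma) was 0.162 between rostral and caudal, 0.597 between rostral and middle, 0.413 between middle and caudal and 0.295 in the F test. Among all features 12 (0.0648%) passed between rostral and caudal, 0 (0%) between rostral and middle, 0 (0%) between middle and caudal and 2 (0.0108%) in the F test. The largest differences were 0.45 for Atp5g1 in rostral against caudal (1.37-fold), -0.32 for Atp5d in rostral against middle (1.25-fold) and -0.55 for Uqcrh in middle against caudal (1.46-fold). The Uqcrh difference included 1 direct array that read -1.61, given below with the others. The 95% interval of the difference, from limma's standard errors, lay wholly within 0.5 of 0 on the log2 scale (1.41-fold) for 64 of 71 members in rostral against caudal and for 66 in each of the other comparisons. The median interval reached 0.25 to either side of the estimate.

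For rostral against caudal, 40 members lay above 0 and 31 below, with a median of 0.01 beside 0.0016 over all features. At an unadjusted p under 0.05 (limma), 3 members were higher in rostral pools, where 4.17% of all features were, and 5 were lower, where 3.74% were. The rostral pools lay wholly above the caudal pools in 5 members (6.22% of all features) and wholly below in 5 (5.89%). The count of 8 members at an unadjusted p under 0.05 was 4 without rostral pool 2 or without middle pool 2. It was 3 without caudal pool 2 and 5 without caudal pool 3. Without caudal pool 1 it rose to 10, and without centring to 12. Leaving out any other single pool gave 7 or 8. It was 7 without rostral pool 3 and caudal pool 1 together. The share of all features at the unadjusted p was not computed for these settings. The changes in count therefore cannot be read as particular to the members.

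For rostral against middle, 48 of 71 members lay below 0, with a median of -0.04 beside 0.0022 over all features. At an unadjusted p under 0.05 (limma), 0 members were higher in rostral pools (2.16% of all features) and 4 were lower (3.09%). The rostral pools lay wholly above the middle pools in 2 members (5.17%) and wholly below in 14 (7.66%). Among cytosolic ribosomal protein genes the rostral pools lay wholly below the middle pools in 36 of 62. For middle against caudal, 53 of 71 members lay above 0, with a median of 0.05 beside 0.0020. At an unadjusted p under 0.05 (limma), 2 were higher in middle pools (3.08%) and 0 lower (1.78%), and the pools did not overlap in 3 and 0 members (6.18% and 4.38%). At the unadjusted p, 1 to 8 members passed for rostral against middle when single pools were left out: 1 without middle pool 2, 8 without middle pool 1. For middle against caudal it was 1 without middle pool 3, 4 without caudal pool 1 and 8 without centring. Shares of all features were not computed for these settings either. The F test gave 6 members at an unadjusted p under 0.05, beside 6.71% of all features.

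The medians of the 5 complexes were small and, for rostral against caudal, on both sides of 0. They were 0.03 in complex I (21 of 31 genes above 0), 0.06 in complex II (4 of 4), -0.06 in complex III (2 of 9), -0.01 in complex IV (4 of 12) and 0.05 in complex V (9 of 15). For rostral against middle all 5 were below 0 (-0.03, -0.0053, -0.04, -0.06 and -0.05), and for middle against caudal they were 0.06, 0.03, 0.01, -0.0071 and 0.06. All were smaller than the SD of 0.10 between the member medians of pools of the same region. The sign of the median over all members rested on single pools. For rostral against caudal it was -0.06 without caudal pool 1, and -0.03 without rostral pool 1 or 2. For rostral against middle it was 0.04 without rostral pool 3, and for middle against caudal -0.01 without caudal pool 1. It was also 0.06 (rostral minus middle) and -0.12 (middle minus caudal) without centring, where the median of all features was 0.10 and -0.17.

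**Figure D4:**
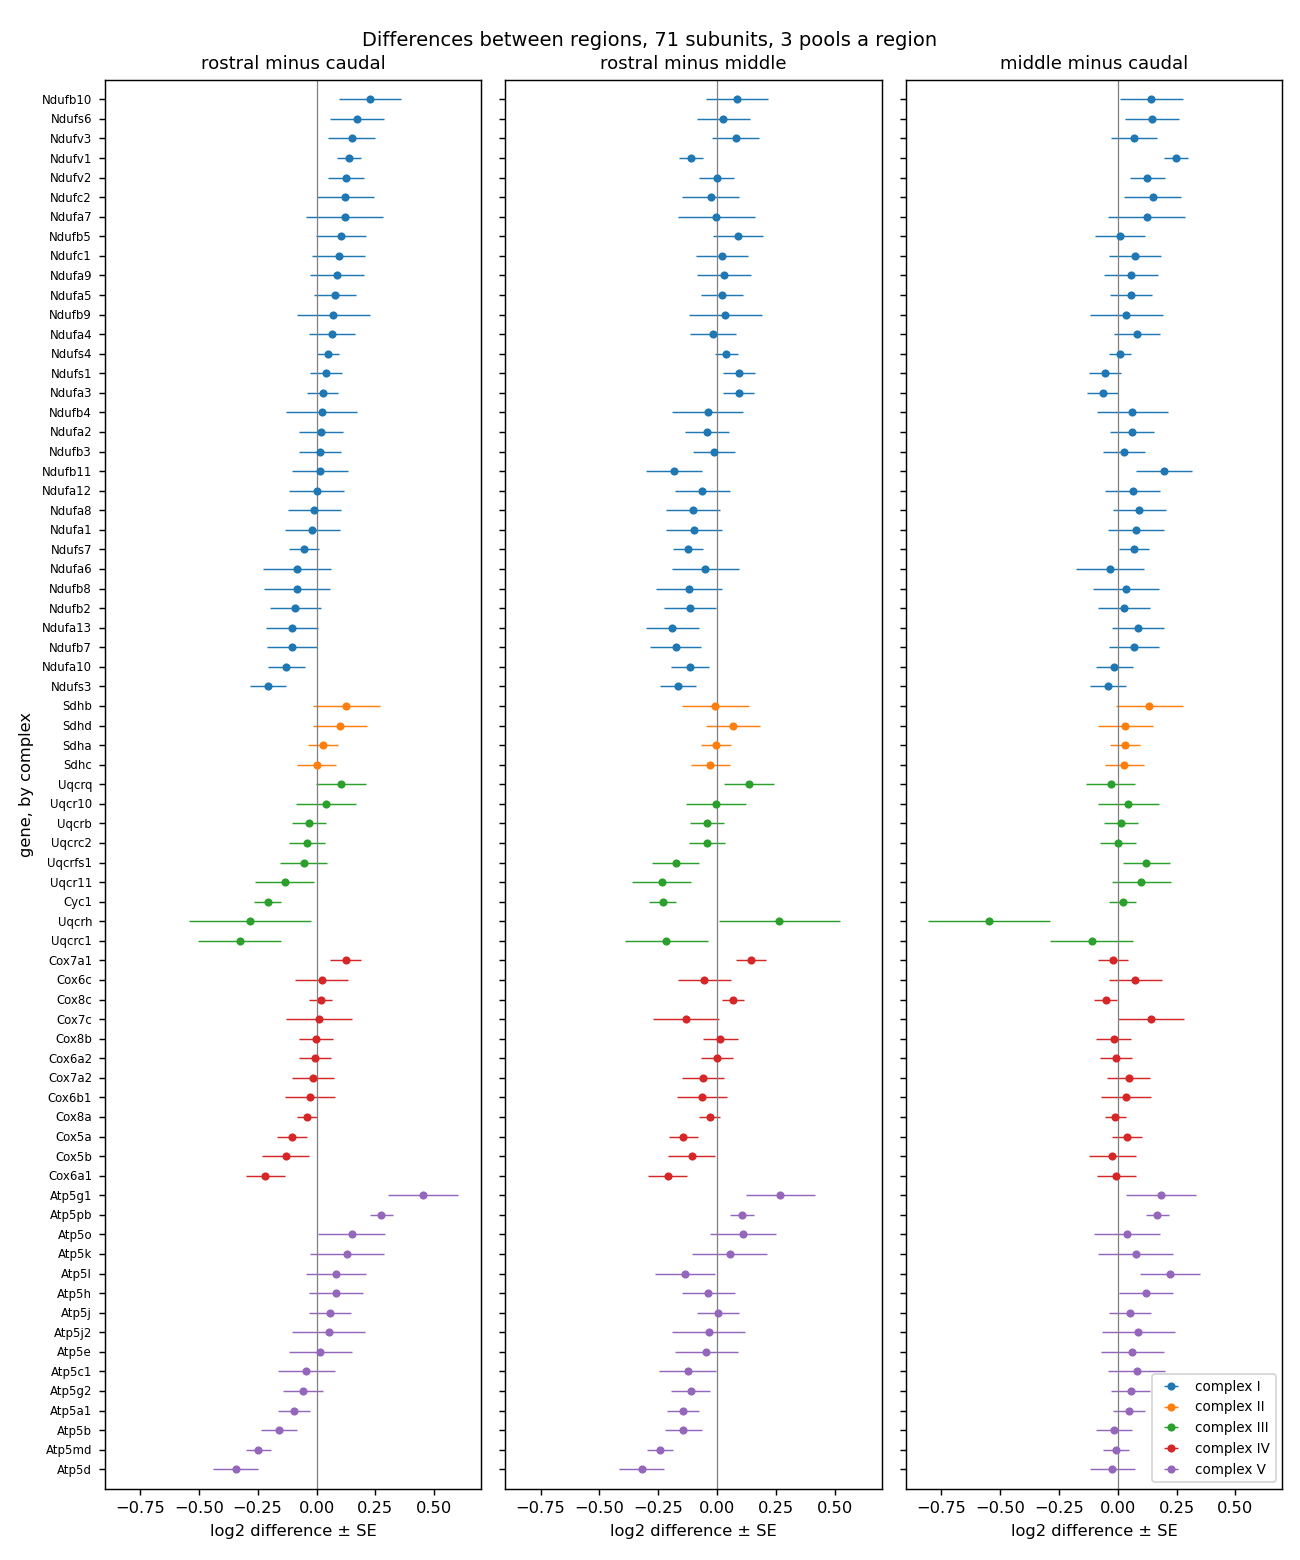
Log2 difference ± SE (x axis) of 71 subunit genes (y axis, grouped and coloured by complex) in 3 comparisons, 3 pools a region. Complexes I to V each have genes on both sides of 0 in rostral minus caudal except complex II, and the outermost genes of that comparison are Atp5g1 (0.45) and Atp5d (-0.34).

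Among the core subunits of complex I, which carry its electron path, Ndufv1 had the smallest p. It encodes the flavoprotein that binds NADH. Its middle pools read 0.17, 0.13 and 0.06, its rostral pools -0.03, 0.03 and 0.03, and its caudal pools -0.13, -0.09 and -0.17. The 3 regions did not overlap, with middle highest and caudal lowest. Middle exceeded caudal by 0.25 (SE 0.05, limma unadjusted p = 0.00169, adjusted p = 0.413), and on the 6 arrays that carried both regions the ratio was above 0 in 6, from 0.06 to 0.43. Rostral exceeded caudal by 0.14 (SE 0.05, limma adjusted p = 0.527).

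Ndufv2, which holds an iron-sulfur cluster beside Ndufv1, read 0.10, 0.11 and -0.09 in rostral pools, -0.03, 0.08 and 0.07 in middle pools, and -0.17, -0.04 and -0.05 in caudal pools. Its middle pools lay above its caudal pools by 0.13 on average (SE 0.07, limma adjusted p = 0.995). Ndufs3, a core subunit of the arm that hands electrons to ubiquinone, ran the other way. It read -0.0093, -0.21 and -0.15 in rostral pools against 0.02, 0.09 and 0.14 in caudal pools, with middle pools at -0.06, 0.07 and 0.12. The rostral pools lay below the caudal pools without overlap, by 0.20 (SE 0.08, limma unadjusted p = 0.0306, adjusted p = 0.533). Ndufs7, which holds the last iron-sulfur cluster, differed by -0.05 (SE 0.06) and Ndufs1 by 0.04 (SE 0.07) in that comparison, with overlapping pools.

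The median of the 25 supernumerary subunits of complex I was -0.19 in both rostral pool 3 and caudal pool 1, where the 5 core subunits had -0.09 and -0.12. Ndufb10 had the highest rostral minus caudal difference of complex I, 0.23 (SE 0.13, limma adjusted p = 0.804), with rostral pools of 0.19, 0.27 and -0.15 overlapping caudal pools of -0.32, 0.01 and -0.07. Ndufb11, an X-linked gene, was highest in middle pools 2 and 3 (0.17 and 0.26) and lay 0.20 above caudal on average (SE 0.12, limma adjusted p = 0.995). Ndufa13 had the lowest rostral minus middle difference of complex I, -0.19 (SE 0.11, limma adjusted p = 0.983). Ndufa3 had the lowest middle minus caudal difference of complex I, -0.06 (SE 0.07). Ndufa4, named for complex I but now placed in complex IV, had rostral pools of 0.14, 0.05 and -0.14 and caudal pools of -0.21, 0.05 and 0.01.

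In complex II the differences were smaller than their errors. Rostral minus caudal was 0.03 for Sdha (SE 0.06), 0.13 for Sdhb (SE 0.14), 0.00044 for the membrane anchor Sdhc (SE 0.08) and 0.10 for the anchor Sdhd (SE 0.12). The Sdha interval, -0.12 to 0.18, was the narrowest of the 4 genes.

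In complex III, Cyc1 separated rostral from both other regions. It encodes cytochrome c1, which passes electrons to cytochrome c. Its rostral pools read -0.11, -0.14 and -0.19, its middle pools 0.01, 0.11 and 0.13, and its caudal pools 0.00022, 0.13 and 0.06. All 3 rostral pools were lowest, and middle and caudal overlapped. The difference was -0.21 against caudal (SE 0.06, limma unadjusted p = 0.00792, adjusted p = 0.344) and -0.23 against middle (SE 0.06, limma unadjusted p = 0.00468, adjusted p = 0.611), with ratios below 0 on 6 of 6 direct arrays in each comparison. Uqcrfs1, the Rieske iron-sulfur protein and the other electron carrier measured in this complex, read -0.16, -0.04 and -0.02 in rostral pools and 0.13, -0.03 and -0.16 in caudal pools, which overlapped.

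The core proteins Uqcrc1 and Uqcrc2 differed in spread. Uqcrc1 read -0.02, -0.33 and -0.19 in rostral pools and -0.19, 0.11 and 0.52 in caudal pools, a difference of -0.33 (SE 0.18, limma adjusted p = 0.774). Uqcrc2 stayed between -0.15 and 0.10 in all pools. Uqcrh, the hinge protein beside cytochrome c1, had the widest spread of the members named here. It read 0.39, 0.02 and -0.42 in rostral pools, -0.37, -0.47 and 0.03 in middle pools, and 0.02, 0.13 and 0.68 in caudal pools. Its middle minus caudal difference was -0.55 (SE 0.26, limma unadjusted p = 0.0712, adjusted p = 0.995), and its residual SD between arrays was 0.402. Only 5 direct middle-caudal arrays had values for Uqcrh. They ran from -1.61 to -0.02, with a median of -0.21. Uqcr11, a small subunit, was lowest of complex III in rostral against middle, at -0.24 (SE 0.13), and Uqcrq lay 0.10 above 0 in rostral against caudal (SE 0.11).

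In complex IV, Cox6a1, the form of subunit VIa found in most tissues, read -0.06, -0.12 and -0.25 in rostral pools, 0.02, 0.11 and 0.08 in middle pools, and -0.07, 0.10 and 0.19 in caudal pools. Rostral lay below middle without overlap, by 0.21 (SE 0.08, limma unadjusted p = 0.0374, adjusted p = 0.929), and overlapped caudal through a single pool, with a difference of -0.22 (SE 0.08, limma adjusted p = 0.551). Its muscle isoform Cox6a2 differed by -0.0068 (SE 0.07) from rostral to caudal. Cox7c, a small subunit, had the highest middle minus caudal difference of complex IV, 0.14 (SE 0.14). Cox5a, a subunit that lies on the matrix side, was 0.14 lower in rostral than in middle pools (SE 0.06, limma adjusted p = 0.938).

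Cox7a1, the muscle isoform of subunit VIIa, went opposite to Cox6a1. It read 0.08, 0.08 and 0.10 in rostral pools, -0.12, 0.03 and -0.08 in middle pools, and 0.05, -0.13 and -0.03 in caudal pools. The rostral pools were highest without overlap, by 0.12 against caudal (SE 0.06, limma adjusted p = 0.758). The 6 direct rostral-caudal arrays did not all go that way. Of them 4 read above 0 and 2 below, from -0.40 to 0.65, and its residual SD between arrays was 0.228. The form found in most tissues, Cox7a2, differed by -0.01 (SE 0.09). Cox8b and Cox8c, the muscle and testis forms of subunit VIII, differed by -0.0029 (SE 0.07) and 0.02 (SE 0.05), and Cox8a by -0.04 (SE 0.04). Ratios say nothing of level, so whether these isoforms were expressed in the tissue was not measured. Of 12 skeletal or cardiac muscle markers, 5 lay above 0 and 7 below in rostral against caudal, with a median of -0.03.

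ATP synthase held the smallest p and the largest rostral-caudal difference of all members. Atp5pb encodes the b subunit of the peripheral stalk, which holds the F1 head still while the rotor turns. Its rostral pools read 0.13, 0.18 and 0.07, its middle pools 0.0033, -0.0024 and 0.06, and its caudal pools -0.16, -0.14 and -0.14. The 3 regions did not overlap, with rostral highest and caudal lowest. Rostral exceeded caudal by 0.27 (SE 0.05, 95% interval 0.16 to 0.39, limma unadjusted p = 0.000744, adjusted p = 0.162), and the 6 direct arrays gave 0.21 to 0.35. Middle exceeded caudal by 0.17 (SE 0.05, limma unadjusted p = 0.0104, adjusted p = 0.689). The other stalk genes, Atp5h, Atp5j and Atp5o, had overlapping pools and differences of 0.08 (SE 0.11), 0.06 (SE 0.09) and 0.15 (SE 0.14).

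Atp5md, a small membrane subunit tied to the pairing of ATP synthase into dimers, ran the opposite way. Its rostral pools read -0.20, -0.15 and -0.14, its middle pools 0.05, 0.08 and 0.11, and its caudal pools 0.16, 0.01 and 0.08. Rostral was lowest and middle and caudal overlapped. The difference was -0.25 against caudal (SE 0.05, limma unadjusted p = 0.00237, adjusted p = 0.208) and -0.24 against middle (SE 0.05, limma unadjusted p = 0.00271, adjusted p = 0.597). The 6 direct rostral-caudal arrays ran from -0.37 to -0.09. Rostral pool 3 and caudal pool 1, low in most members, were here the highest pools of their regions.

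The c ring, the rotor that protons turn, is made from several genes for the same mature protein. Atp5g1 read 0.10, 0.30 and 0.32 in rostral pools, -0.11, -0.23 and 0.26 in middle pools, and -0.03, -0.24 and -0.37 in caudal pools. Rostral lay above caudal without overlap, by 0.45 (SE 0.15, limma unadjusted p = 0.0175, adjusted p = 0.443), and the 6 direct arrays ran from 0.05 to 1.11, a wide range. The range split by dye: 0.93, 0.88 and 1.11 with rostral in Cy5, and 0.05, 0.36 and 0.16 with rostral in Cy3. Its residual SD between arrays was 0.323. Atp5g2 read -0.0015, -0.0047 and -0.16 in rostral pools and -0.14, 0.03 and 0.12 in caudal pools, a difference of -0.06 (SE 0.08, limma adjusted p = 0.941). The difference between these genes was not tested.

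In the F1 head, where ATP is formed, 4 of 5 genes lay below 0 in rostral against caudal and 5 of 5 in rostral against middle. Of all 71 members 31 and 48 did so, and of all 18525 features 9181 and 9141. Against middle, 8 of 8 complex IV genes other than the muscle and testis isoforms also lay below 0. Atp5d, the delta subunit of the head's central stalk, read -0.21, -0.25 and -0.20 in rostral pools, 0.07, 0.18 and 0.05 in middle pools, and -0.07, 0.12 and 0.31 in caudal pools. The rostral pools were lowest, by 0.34 against caudal (SE 0.10, limma unadjusted p = 0.00855, adjusted p = 0.344) and by 0.32 against middle (SE 0.10, limma unadjusted p = 0.012, adjusted p = 0.781). The catalytic Atp5b differed from caudal by -0.16 (SE 0.08, limma adjusted p = 0.718) and its partner Atp5a1 by -0.10 (SE 0.07, limma adjusted p = 0.866), both with overlapping pools. Against middle, Atp5b and Atp5a1 were both wholly below, by 0.14, as were 7.66% of all features. Atp5l, the membrane subunit g, lay 0.22 higher in middle than in caudal pools (SE 0.13, limma adjusted p = 0.995), with overlap. A single direct middle-caudal array read 1.38 for Atp5l, and the others lay between -0.08 and 0.25. Without the 4 arrays with most capped ratios, which include that array, the difference was 0.03.

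**Figure D5:**
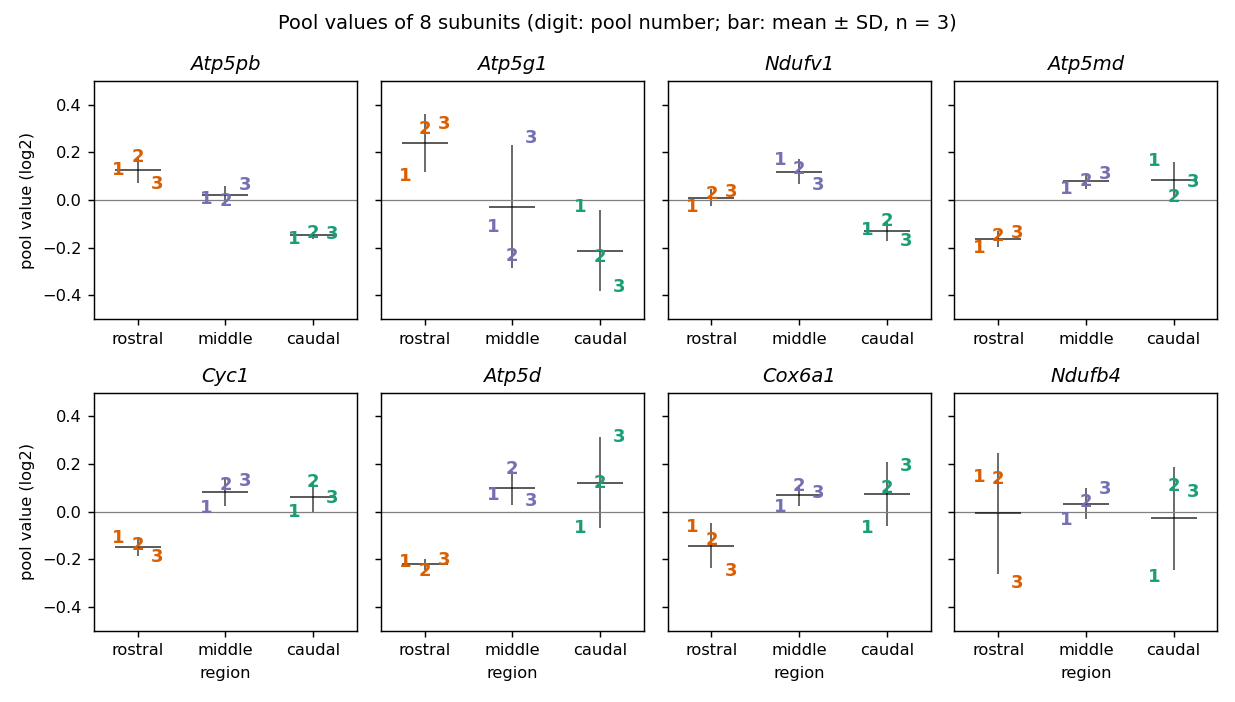
Pool values (log2, y axis) of 8 subunit genes in 3 regions (x axis); digits are pool numbers, and the bar is the mean ± SD of 3 pools. Atp5pb is highest in rostral and lowest in caudal pools, Atp5md, Cyc1 and Atp5d are lowest in all 3 rostral pools, and Ndufb4 shows the low rostral pool 3 and caudal pool 1 without a difference between regions.

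The proximal promoters of the c ring genes among the members and of the ATP synthase genes with the smallest p in each direction are shown. Those promoters were picked after the values of their genes were seen. Atp5pb and Atp5md ran in opposite directions, while the rostral and caudal pools of Atp5g2 overlapped. Whether motifs bear on the differences between regions was not tested. Each is the 250 bases before the RefSeq start (GRCm38.p6), written in the gene's direction: Atp5g1 (chr11:96075632-96075881, minus strand), Atp5g2 (chr15:102671048-102671297, minus strand), Atp5pb (chr3:105959264-105959513, minus strand) and Atp5md (chr19:47090648-47090897, minus strand). Capitals mark short motifs of factors known to act on respiratory genes, searched on both strands: GCGCATGC for NRF1, CCGGAAG for the ETS family, AAGATGGC for YY1 and GGGCGG for Sp1.
Atp5g1: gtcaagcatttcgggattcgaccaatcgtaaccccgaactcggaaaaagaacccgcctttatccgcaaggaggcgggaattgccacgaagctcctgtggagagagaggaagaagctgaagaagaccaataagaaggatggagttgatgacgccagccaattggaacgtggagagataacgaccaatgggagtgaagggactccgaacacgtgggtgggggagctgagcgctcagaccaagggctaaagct
Atp5g2: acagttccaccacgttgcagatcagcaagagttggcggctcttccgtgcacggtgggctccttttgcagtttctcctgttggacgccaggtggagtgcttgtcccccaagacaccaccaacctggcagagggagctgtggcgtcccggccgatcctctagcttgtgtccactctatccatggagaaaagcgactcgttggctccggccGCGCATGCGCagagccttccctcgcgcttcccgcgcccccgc
Atp5pb: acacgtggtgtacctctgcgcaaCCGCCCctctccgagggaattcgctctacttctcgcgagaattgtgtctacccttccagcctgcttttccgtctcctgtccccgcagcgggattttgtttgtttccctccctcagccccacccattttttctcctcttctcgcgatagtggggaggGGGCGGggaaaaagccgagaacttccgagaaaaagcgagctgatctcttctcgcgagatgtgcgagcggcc
Atp5md: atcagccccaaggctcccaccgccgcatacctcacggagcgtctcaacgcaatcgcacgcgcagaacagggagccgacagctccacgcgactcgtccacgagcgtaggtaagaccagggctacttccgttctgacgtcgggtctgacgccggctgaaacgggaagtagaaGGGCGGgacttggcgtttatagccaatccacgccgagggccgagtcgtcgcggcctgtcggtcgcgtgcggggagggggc
In the printed bases Atp5g1 holds none of these motifs, while Atp5g2 has overlapping NRF1 motifs on both strands, Atp5pb has 2 Sp1 motifs and Atp5md has 1. Motifs that reach past the start are not marked: Sp1 in Atp5g2, YY1 in Atp5pb and the ETS motif in Atp5md. Atp5g1 has none there either. They are included in the counts over the longer windows below.

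RefSeq promoter windows, which also cover 50 bases past the start, matched 60 of the 73 members. The NRF1 motif was in windows of 9 of these genes (15%) against 3.05% of 27025 genes, the YY1 motif in 10 (16.7%) against 3.19%, the ETS motif in 15 (25%) against 9.93%, and the Sp1 motif in 25 (41.7%) against 38.2%. The 27025 are all genes with such a window and are not limited to genes on the array. Whether the shares are particular to the subunit genes was not tested. By complex, the YY1 motif was in 7 of 28 genes of complex I and 3 of 14 of complex V and in 0 of 3, 0 of 5 and 0 of 10 of complexes II, III and IV. The ETS motif was in 2 of 28 genes of complex I, 2 of 3 of complex II, 2 of 5 of complex III, 3 of 10 of complex IV and 6 of 14 of complex V. A match describes the letters in the window and is not a measured site; a gene can hold more than 1 motif.

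Related genes were set beside the members. Of the list of other respiratory chain genes, 9 of 26 were tested and 0 passed limma's adjusted test, with 1 at an unadjusted p under 0.05 in rostral against caudal. The nearest was Etfb, a subunit of the electron transfer flavoprotein, 0.44 higher in rostral than in caudal pools (SE 0.09, limma unadjusted p = 0.00145, adjusted p = 0.186). Of 7 carriers for ATP, phosphate and the outer membrane, Slc25a3, the phosphate carrier that feeds ATP synthase, had the smallest p of these lists: -0.38 in rostral against caudal (SE 0.05, limma unadjusted p = 0.000109, adjusted p = 0.0619). Assembly factors (38 tested), regulators of mitochondrial biogenesis (11), citric acid cycle genes (16) and glycolysis genes (15) had 0 genes past the adjusted test in any comparison, with lowest adjusted p (limma) of 0.379, 0.423, 0.350 and 0.362, all in rostral against caudal. At an unadjusted p under 0.05 they had 2 (5.26%), 1 (9.09%), 3 (18.8%) and 3 (20%) genes in that comparison, beside 11.3% of the members and 7.90% of all features. Gabpb1, a subunit of an ETS-family regulator of respiratory genes, read 0.19 lower in rostral than in caudal pools (SE 0.06, limma adjusted p = 0.423).

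Markers of other cells were set beside the same comparison. Of 9 meningeal markers, 9 were below 0 in rostral against caudal, with a median of -0.17 (lowest adjusted p by limma 0.188, Ptgds), and 9 endothelial markers had a median of -0.07. Of 9 radial glia markers, 6 lay above 0, and only Vim passed, 0.51 lower in rostral pools (SE 0.05, limma adjusted p = 0.0389). Their part in the values of the subunit genes was not tested.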

How the data were processed

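Total RNA of 9 pools was hybridised to 18 arrays with 2 dyes, per the labels. The authors deposited 1 log2 ratio per probe and array; the sources used here do not give the scanner, background correction, normalization or direction. From these, capped ratios (about 16.6) were set to missing, each array was centred on its median, and features with values on at least 12 arrays and 2 arrays per pool were kept (18525 of 21998 probes, less 232 control spots). Pool values were estimated by least squares, with a coefficient for each pool, constrained to sum to 0, and a dye term. limma 3.58.1 (lmFit and eBayes, R 4.3.3) compared regions over the 9 pool values, with 6 residual degrees of freedom, two-sided, with Benjamini-Hochberg adjustment over all features. The number of pools limits the precision.

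The members and all gene lists were chosen with earlier results of these data known. Named genes are, per comparison, the 6 members with the smallest p and the highest and lowest of each complex, plus the catalytic and redox subunits, the muscle and testis isoforms, and the gene of each list with the smallest p. Ndufb4, Ndufa7, Ndufa4, Ndufv3, Cox7a2, Cox8a, Atp5g2, Atp5h, Atp5j and Atp5o were named after their values were seen. The computation was tested on simulated data whose planted differences were larger than any found among the members. That test therefore does not show how well differences of the size reported here are recovered. Alternatives covered centring, capped ratios, filters, Gapdh spots, probes, a replicate block, arrays as samples and single pools left out.

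Pools of the same number were not treated as pairs in the fit. Their deviations from the region means correlated at -0.43 to -0.06 across features. No array carried pools of the same number together, while other pools shared arrays, so these correlations cannot show whether embryos were shared.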

Additional observations from a re-analysis of the deposited data

How the results depend on the processing

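Members past limma's adjusted test stayed at 0 in every comparison under all alternatives but treating arrays as samples. That setting ignores that each pool was on 4 arrays, and gave 9 members for rostral against caudal (beside 1325 of 18525 features), 5 for rostral against middle (703), 2 for middle against caudal (501) and 8 in the F test (1485). The 9 were Atp5pb, Atp5md, Atp5d, Cox6a1, Cyc1, Ndufs3, Atp5g1, Ndufv1 and Uqcrc1. Without any 1 pool the count was 0 to 0, and the median over the members ran from -0.06 to 0.06 for rostral against caudal, -0.09 to 0.04 for rostral against middle and -0.01 to 0.09 for middle against caudal. Without centring the middle against caudal median was -0.12, with all features at -0.17. With the Gapdh control spots entered as covariate, the rostral against middle median was 0.11, rostral against caudal 0.10 and middle against caudal -0.0071, with 13 members instead of 8 at an unadjusted p under 0.05 for rostral against caudal. With the replicate number as a block, 0 members passed and the lowest adjusted p (limma) for rostral against caudal was 0.547. In that comparison 5 members instead of 8 had an unadjusted p under 0.05 (limma). Shares of all features at the unadjusted p were not computed for the covariate or the block. The labels do not say whether same-numbered pools share more than the number. With features on all 18 arrays only, that lowest adjusted p was 0.0633, for Atp5pb. Leaving out rostral pool 3 and caudal pool 1 together, or the 4 arrays with most capped ratios, was chosen after seeing the data. With 3 pools a region, the median 95% interval of a member reached 0.25 to either side.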
